A study of Mus musculus with 8 samples.

Results

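Gpr17, Enpp6, Bcas1, Itpr2, Tcf7l2, Fyn, Bmp4 and Tnr are transcribed as a progenitor commits to the oligodendrocyte lineage and becomes a newly formed, premyelinating oligodendrocyte. These 8 genes, chosen by name, were all among the 11315 genes with RNA values, and 934 of the 1497075 CpG sites with hydroxymethylation counts lay in their promoters, exons or introns. Both measurements were made on cells sorted by fluorescence from mouse brain at postnatal day 60, on a C57BL/6 background per the labels. Adult oligodendrocyte progenitor cells (aOPC) were GFP-positive cells of Pdgfra-H2BEGFP mice, in which the Pdgfra locus drives a nuclear GFP. Adult oligodendrocytes (aOL) were GFP-positive cells of Plp-EGFP mice, in which a promoter active in oligodendrocytes drives GFP. Each population had 2 RNA-seq libraries and 2 libraries from reduced representation hydroxymethylation profiling (RRHP), numbered replicates 2 and 3, with DNA and RNA taken from the same pellets. The population and the reporter line therefore cannot be told apart, and nothing states how many mice went into a library.

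During differentiation a progenitor that carries Pdgfra and Cspg4 first passes through a committed stage and then a premyelinating stage before it wraps axons. Gpr17 and Bmp4 belong to the earliest of these steps, Enpp6, Bcas1, Itpr2 and Tcf7l2 to the newly formed cell, and Mbp, Mog and Mag to the myelinating cell. 5-hydroxymethylcytosine (5hmC), the oxidation product that TET enzymes make from methylated cytosine, is abundant over the gene bodies of brain cells. RRHP counts reads from CCGG sites at which 5hmC, once glucosylated, blocks the enzyme MspI.

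The labels give more than 1 name to the aOL cells, pre-myelinating in the titles of the RNA samples and myelinating in the protocol, so their stage was a question for the data. For RRHP, the aOL samples carry a tissue label with the Pdgfra reporter, which their titles contradict, and the titles set their group. The RRHP depth was 7113237 and 17121440 counts for aOPC (replicates 2 and 3) against 15923775 and 27057859 for aOL. The RNA values are log2 values without read counts, so no RNA depth was computed from them, although the methods list mapped reads for each library. The aOPC libraries differed more from each other than the aOL libraries did, with an SD over all genes of 0.95 against 0.45 log2 units for the difference between replicates.

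The reference genes of each stage separated the populations only in part. Mbp, a structural protein of compact myelin, had log2 values of 19.58 and 17.55 in aOPC replicates 2 and 3, against 19.17 and 19.40 in the aOL libraries. Mog, a protein of the outer myelin surface, had 17.59 and 17.76 in aOPC against 16.89 and 17.16 in aOL. The libraries labelled aOPC thus held Mog above the aOL values, and Mbp above them in replicate 2 and below them in replicate 3. Pdgfra, the receptor that keeps progenitors dividing, had 7.54 and 5.47 in aOPC against 4.98 and 1.63 in aOL. Cspg4, the progenitor proteoglycan NG2, had 8.05 and 6.79 in aOPC against 6.39 and 6.82 in aOL. The Pdgfra values did not overlap between populations and those of Cspg4 did, and neither gene was called (adjusted p = 0.25 and 0.374, limma with Benjamini-Hochberg adjustment over 11133 genes). Of 11 progenitor genes tested, 1 was lower and 1 higher in aOL at an unadjusted limma p under 0.05 (1331 and 1346 of all 11133). Sox6, a progenitor transcription factor, was the lower one, at 7.77 and 6.10 in aOPC against 5.28 and 5.14 in aOL. The higher one was Lnx1, a ubiquitin ligase, at 8.27 and 7.78 in aOPC against 9.80 and 9.28 in aOL.

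None of the 8 genes was called different between aOL and aOPC RNA, where a call required p under 0.01 and an adjusted p under 0.05. Over all 11133 genes tested, 9 were called (0.0808%), 1 higher and 8 lower in aOL. At an unadjusted p under 0.05, 1 of the 8 genes differed, Bmp4, which was lower in aOL, against 24.0% of all genes in either direction (1331 lower and 1346 higher). The median difference, aOL minus aOPC, was -0.36 on the log2 scale over the 8 genes and 0.02 over all genes. Fewer cells of a stage and less RNA per cell cannot be told apart in such sorted bulk samples.

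Bmp4, a secreted ligand that holds back oligodendrocyte differentiation, had the largest difference of the 8. Its log2 values were 9.08 in aOPC replicate 2 and 6.83 in aOPC replicate 3, against 3.37 and 4.20 in aOL replicates 2 and 3. Both aOL libraries lay below both aOPC libraries, with a difference of -4.16 ± 0.85 (SE, 95% interval from -6.50 to -1.83, n = 2 against 2). Its unadjusted limma p was 0.00739 and its adjusted p 0.134, and 3.72% of all genes were lower in aOL at an unadjusted p under 0.01. Over the 4 leave-1-out fits, the adjusted p ranged from 0.0255 to 0.102 and the difference from -5.29 to -3.04.

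Itpr2, the inositol trisphosphate receptor that releases calcium from the endoplasmic reticulum, had 10.29 and 9.04 in aOPC against 9.01 and 8.78 in aOL. Its aOL values lay just below those of aOPC replicate 3 and well below replicate 2, with a difference of -0.77 ± 0.48 (SE, adjusted p = 0.377, limma). Tcf7l2, a transcription factor of the Wnt pathway that promotes differentiation of the lineage, had 10.94 and 10.88 in aOPC against 10.72 and 10.70 in aOL. Its groups did not overlap either, and the difference was -0.20 ± 0.19 (SE, 95% interval from -0.70 to 0.31, adjusted p = 0.541, limma). Bmp4, Itpr2 and Tcf7l2 make 3 of 8 genes with both aOL values below both aOPC values, where 29.9% of all genes tested have this pattern.

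Gpr17, an orphan receptor of committed precursors that restrains their maturation, had 12.64 in aOPC replicate 2 and 8.20 in aOPC replicate 3. Both aOL libraries lay between these, at 9.88 and 9.93. The aOPC spread of 3.14 (SD, n = 2) exceeded the difference of the means, -0.52 ± 1.55 (SE, adjusted p = 0.852, limma). Bcas1, a protein of premyelinating and early myelinating cells, had 14.49 and 11.45 in aOPC against 13.75 and 14.03 in aOL, a difference of 0.92 ± 1.07 (SE, adjusted p = 0.621, limma). For both genes the aOL libraries agreed to within 0.28 log2 units while the aOPC libraries stood 4.44 and 3.04 apart.

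Enpp6, a choline phosphodiesterase that marks newly formed oligodendrocytes, had 14.17 and 13.38 in aOPC against 13.81 and 13.78 in aOL. Fyn, a Src-family kinase that links axon contact to local translation of Mbp, had 13.33 and 12.29 in aOPC against 12.79 and 12.83 in aOL. The aOL values of both fell between the aOPC values, with differences of 0.02 (95% interval from -0.88 to 0.93) for Enpp6 and 0.00 (95% interval from -1.10 to 1.11) for Fyn. Tnr, the extracellular matrix glycoprotein tenascin-R, had 8.31 and 5.47 in aOPC against 6.31 and 5.14 in aOL, and its groups overlapped (difference -1.17 ± 1.08 SE, adjusted p = 0.536, limma).

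**Figure D1:**
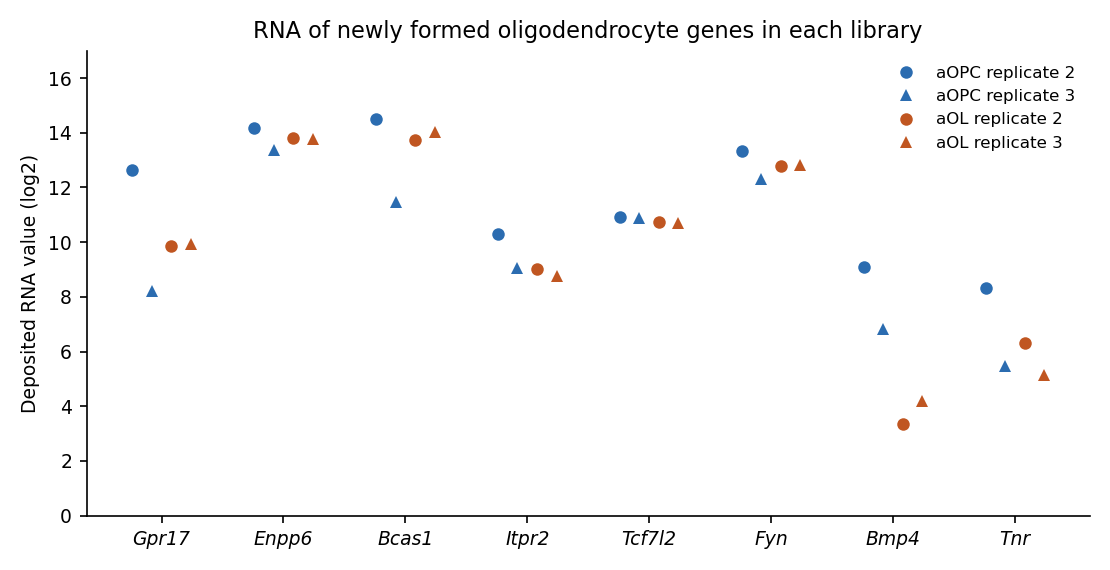
Deposited log2 RNA value of each of the 8 genes (y axis) in each library, with blue for aOPC, orange for aOL, circles for replicate 2 and triangles for replicate 3. In every gene aOPC replicate 2 is the highest library, and Bmp4 is the gene in which both aOL libraries, at 3.37 and 4.20, sit farthest below aOPC.

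The 8 genes shared a direction between the aOPC replicates. All 8 were higher in aOPC replicate 2 than in aOPC replicate 3, by a median of 1.75 log2 units, whereas 44.6% of all genes were. All 8 were also higher in aOPC replicate 2 than in both aOL libraries, which held for 43.2% of all genes. Compared with aOPC replicate 3, only Bmp4, Itpr2 and Tcf7l2 had both aOL values lower, 3 of 8 against 46.7% of all genes. The markers of other cell types moved the same way between these replicates in part: 9 of 10 astrocyte, 10 of 10 microglial and 4 of 5 neuronal markers were higher in aOPC replicate 2, and so were 9 of 11 progenitor genes. The other way, 0 of 2 endothelial and 2 of 6 pericyte and fibroblast markers were higher there. Their part in the difference between the replicates was not tested.

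Leaving out 1 aOPC library therefore decided the calls, with the remaining aOPC library assumed to vary as the aOL libraries do. Without aOPC replicate 2, Gpr17 (1.70) and Bcas1 (2.44) were called higher in aOL and Bmp4 (-3.04) lower, at adjusted p of 0.0183, 0.0183 and 0.0255 by limma, when 34.2% of all genes were called. Without aOPC replicate 3, Gpr17 (-2.74), Itpr2 (-1.40) and Bmp4 (-5.29) were called lower, at adjusted p of 0.0398, 0.0446 and 0.0445 by limma, when 17.7% of all genes were called. Gpr17 thus passed the threshold in opposite directions. Bmp4 was the only gene of the 8 called with the same sign in both of these fits.

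**Figure D2:**
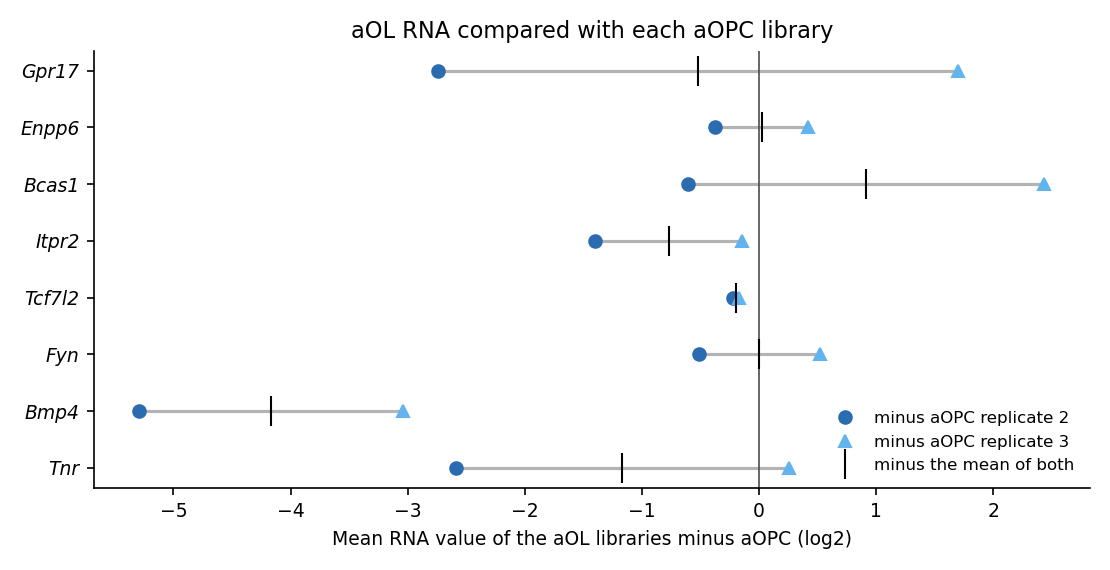
Mean RNA value of the aOL libraries minus each aOPC library (x axis, log2 units) for the 8 genes, with dark circles for aOPC replicate 2, light triangles for replicate 3 and a black tick for the mean of both. Zero lies between the 2 values for Gpr17, Enpp6, Bcas1, Fyn and Tnr, and the Bmp4 values are -5.29 and -3.04.

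Within a library, genes were compared per length, as the log2 value minus the log2 of the kilobases of annotated exon. Mean level and exon length correlated at only 0.10 (Spearman, 10929 genes). The low percentiles of long genes such as Itpr2 and Tnr therefore depend on this division. In aOL, Bcas1 had the highest mean of the 8, at 11.97 ± 0.20 (SD, n = 2), followed by Enpp6 (11.11 ± 0.02) and Fyn (10.69 ± 0.02). Bcas1 was at the 94.5th and 95.6th percentile of all genes in aOL replicates 2 and 3, and Enpp6 and Fyn averaged the 90.3th and 86.8th. Tcf7l2 (7.58 ± 0.01) and Gpr17 (7.52 ± 0.04) came next, near the 37.4th and 36.5th percentile, and then Itpr2 (5.01 ± 0.17) at the 11.9th. Bmp4 (2.62 ± 0.59) and Tnr (2.04 ± 0.83) were last, at the 2.97th and 2.23th percentile. Only the ranges of Bmp4 and Tnr overlapped among neighbours in this order. In aOPC the order was Enpp6, Bcas1, Fyn, Gpr17, Tcf7l2, Bmp4, Itpr2 and Tnr, and every pair of neighbours except Itpr2 and Tnr overlapped.

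The mature list placed these levels. The 32 myelinating and mature genes had a median at the 99.5th and 99.6th per-length percentile in aOL replicates 2 and 3, and at the 99.6th and 99.2th in aOPC replicates 2 and 3. Their median difference, aOL minus aOPC, was 0.00, and none was called. At an unadjusted limma p under 0.05, 9 of 32 were lower and 3 higher (1331 and 1346 of all 11133 genes). Ninj2, a cell-surface adhesion protein, was at 12.55 and 12.99 in aOPC against 10.77 and 10.81 in aOL. Klk6, a serine protease of mature oligodendrocytes, was at 14.64 and 13.96 in aOPC against 12.75 and 12.88 in aOL, and Ppp1r14a, a phosphatase inhibitor, at 14.60 and 14.66 in aOPC against 13.25 and 13.46 in aOL. The 3 higher ones were Enpp2 (1.08), the autotaxin gene, Ugt8a (0.79), the enzyme of galactosylceramide synthesis, and Tspan2 (0.55), a tetraspanin of myelin. On the deposited log2 values, without the correction for length, the median of the 8 genes was compared with that of the mature list. It lay 6.17 and 6.19 log2 units lower in aOL replicates 2 and 3, and 4.96 and 6.64 lower in aOPC replicates 2 and 3. The aOL balance fell between those of the aOPC libraries, so the groups overlapped on this measure.

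**Figure D3:**
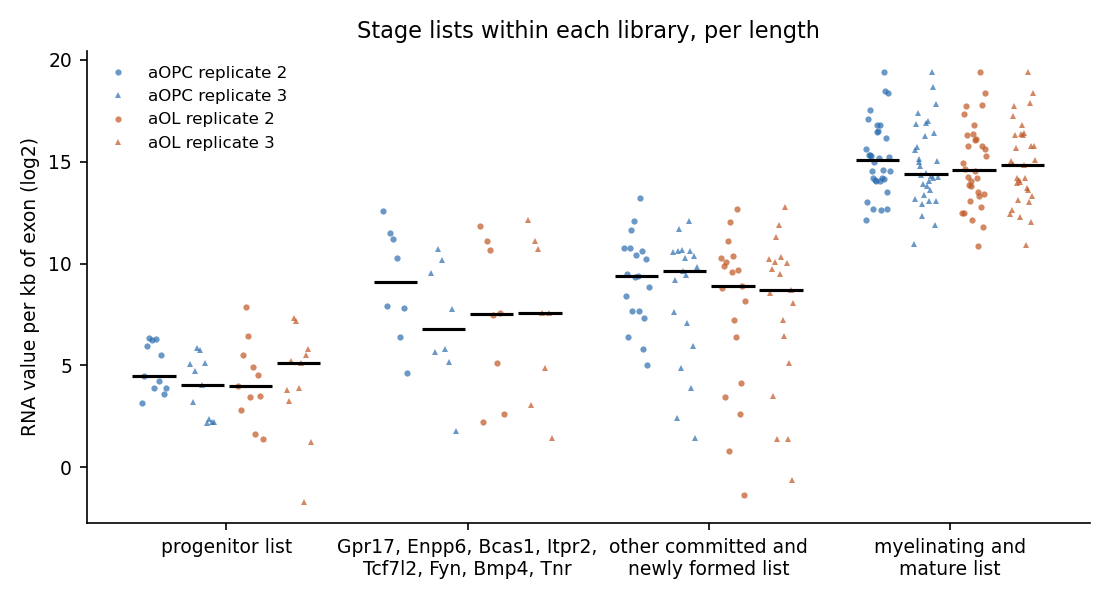
RNA value per kilobase of exon (y axis, log2 units) of every gene in 4 stage lists, in each of the 4 libraries, with black bars at the median. The median of the mature list sits above that of the 8 genes in all 4 libraries, and within the 8 genes aOL values run from 1.46 for Tnr to 12.11 for Bcas1.

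Of 20 other committed and newly formed genes tested, none was called. At an unadjusted limma p under 0.05, 10 were lower in aOL and none higher, where 1331 of all 11133 genes were lower. Both aOL values lay below both aOPC values in 12 of the 20, where 29.9% of all genes had this pattern. Their median difference was -0.69. Of the 20, 14 were higher in aOPC replicate 2 than in aOPC replicate 3, and both aOL values lay below aOPC replicate 2 in 17 and below aOPC replicate 3 in 13. Neu4, a sialidase of the lineage, had 9.90 and 7.07 in aOPC against 3.03 and 3.61 in aOL (-5.17 ± 1.02 SE, adjusted p = 0.133, limma). Vcan, the matrix proteoglycan versican, had 8.87 and 5.27 in aOPC against 2.49 and 3.24 in aOL (adjusted p = 0.178, limma). Sox11, a transcription factor of immature cells, had 8.85 and 6.96 in aOPC against 5.66 and 4.46 in aOL (adjusted p = 0.165, limma). All 3 shared with Bmp4 the order aOPC replicate 2, aOPC replicate 3, then both aOL libraries.

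The genes with the pattern closest to that of Bmp4 over the 4 libraries, by Euclidean distance between centred log2 values, were Vcan (distance 0.955), Boc (1.09) and Neu4 (1.10). Boc, a co-receptor of hedgehog signalling, had 7.26 and 5.94 in aOPC against 1.57 and 3.61 in aOL. Vcan and Neu4 were also on the list of committed-stage genes.

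In the BMP pathway, none of 14 genes tested was called. At an unadjusted limma p under 0.05, 4 were lower in aOL and 4 higher (1331 and 1346 of all 11133 genes). The Id genes, transcriptional targets of BMP signalling that block differentiation factors, were the lower ones. Id1 had 7.89 and 7.95 in aOPC against 5.20 and 4.88 in aOL (-2.88 ± 0.22 SE, adjusted p = 0.0611, limma), and Id2 had 9.99 and 9.26 in aOPC against 6.85 and 7.24 in aOL (-2.58 ± 0.34 SE, adjusted p = 0.112). The higher ones were the receptors Acvr2a (1.41) and Bmpr1a (0.87) and the signal transducers Smad5 (0.98) and Smad9 (1.49, from 0.84 to 2.13 over the leave-1-out fits), with adjusted p from 0.127 to 0.19 by limma. Among relatives of the 8 genes, 4 of 14 were higher at an unadjusted p under 0.05 (1346 of all 11133) and none lower. They included Enpp2, also on the mature list, at 17.86 and 17.66 in aOPC against 18.84 in each aOL library, and Lyn, a Src-family kinase, at 5.20 and 4.33 in aOPC against 6.03 and 5.63 in aOL. The other 2 were Enpp1 (0.94), a phosphodiesterase, and Yes1 (0.98), a Src-family kinase. The ligand Bmp7 had 4.71 and 5.18 in aOPC against 5.33 and 7.69 in aOL.

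Markers of other cell types also differed between the sorts. Of 6 pericyte and fibroblast markers, 4 were lower in aOL at an unadjusted limma p under 0.05 (1331 of all 11133) and none higher. Their summed linear level was 2498 and 3042 in aOPC against 407 and 1006 in aOL. The lower genes were the collagen genes Col1a1 (-4.98), Col1a2 (-3.27) and Col3a1 (-3.64) and the proteoglycan gene Dcn (-4.14). Over the leave-1-out fits Col1a1 ran from -6.67 to -3.29, Col3a1 from -4.82 to -2.46 and Dcn from -4.95 to -3.32. The other 2, Vtn (1.84) and Acta2 (1.30), had higher means in aOL and overlapped, and Vtn, at 9.74 in aOL replicate 3, made up most of the sum in that library. Cldn5, the tight junction protein of endothelium, was at 0.33 and 1.80 in aOPC against 5.92 and 7.13 in aOL, and the vascular growth factor receptor Kdr at 9.06 and 9.36 against 9.73 and 10.07. The summed level of the 10 astrocyte markers was 14985 and 11708 in aOPC against 11294 and 12954 in aOL, and that of the 10 microglial markers 6152 and 3936 in aOPC against 4435 and 3319 in aOL. The connexin gene Gjb6, at 9.90 and 9.44 in aOPC against 7.13 and 6.44 in aOL, was the astrocyte marker with the largest difference, ahead of Gja1 (-1.21, from -2.01 to -0.42 over the leave-1-out fits), Aldoc (-0.76, overlapping) and Gfap (-0.72). The glutamate transporter gene Slc1a3, which made up most of the astrocyte sum in aOL, had 12.38 and 12.52 in aOPC against 12.91 and 12.97 in aOL, and Aldh1l1 (0.61) also had the higher mean in aOL but overlapped. Of the microglial markers, the complement gene C1qc (-1.37, from -2.05 to -0.70 over the leave-1-out fits) and Tmem119 (-0.73) were lower in aOL without overlap. The integrin gene Itgam, at 6.65 and 4.63 in aOPC against 6.96 and 6.67 in aOL, was higher by 0.17 without aOPC replicate 3 and by 2.19 without aOPC replicate 2. The 5 neuronal markers tested had 2 below aOPC in both aOL libraries, with Stmn2 at 7.42 and 6.52 in aOPC against 5.28 and 4.46 in aOL and Tubb3 at 11.84 and 12.41 against 11.57 and 11.76. Bmp4 and the Id genes are also transcribed outside the oligodendrocyte lineage, and the part of these cells in their values was not tested.

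RRHP gave counts over all 8 gene bodies, meaning the sites in the authors' exon and intron columns. None of the 8 was called by edgeR (quasi-likelihood test, adjusted p under 0.05), where 157 of 18488 gene bodies were called (0.849%). The median log2 fold change, aOL over aOPC, was 0.13 over the 8 gene bodies and 0.00 over all. Groups did not overlap in CPM (the counts divided by the depth of their library) for 3 of the 8, Gpr17, Enpp6 and Bmp4, against 38.8% of all gene bodies.

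Gpr17 had the lowest p. Its gene body (chromosome 18, 31942997 to 31949636, minus strand, mm10) gave 344 and 714 counts in aOPC against 477 and 772 in aOL. In CPM these were 48.4 and 41.7 in aOPC against 30.0 and 28.5 in aOL, so that both aOL libraries lay below both aOPC libraries (45.0 ± 4.71 against 29.2 ± 1.01, SD, n = 2 each). The log2 fold change was -0.62 ± 0.13 (SE, adjusted p = 0.0649, edgeR), which placed it among the 2.03% of all gene bodies that were lower in aOL at an unadjusted p under 0.01. All 12 tested sites of Gpr17 had log2 fold changes below 0, from -1.38 to -0.38, against 50.8% of all tested sites, and none of the 12 was called on its own. These sites share libraries and lie within 1 gene, so they are not replicates. All 17 listed Gpr17 sites were in exons, and of the 12 tested, 9 lay in the coding part of exon 2 and 3 in the 3′ UTR. The authors' columns give 15 of the 17 sites to Lims2 as well, so the signal is assigned to 2 genes. The 54 Lims2 sites outside Gpr17 exons gave 74.4 and 73.1 CPM in aOPC against 78.1 and 65.5 CPM in aOL, which overlapped. The site of Gpr17 with the most counts, at chr18:31947170 on the plus strand in the coding part of exon 2, had 77 and 211 counts in aOPC against 140 and 207 in aOL.

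The call on the Gpr17 gene body turned on the libraries and the filter. It passed the threshold without aOPC replicate 2 (adjusted p = 0.0018, when 3.29% of all gene bodies were called) and without aOPC replicate 3 (5.08e-06, when 22.7% were called), both by edgeR. It did not pass without aOL replicate 2 (0.622) or aOL replicate 3 (0.735). The fold change kept its sign in each, from -0.72 to -0.54.

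The other gene bodies differed by less. Bmp4 (chromosome 14, 46383520 to 46390669, minus strand) had 16.0 and 20.4 CPM in aOPC against 24.2 and 21.8 CPM in aOL, and Enpp6 (chromosome 8, 46986887 to 47096762, plus strand) had 47.8 and 50.2 CPM in aOPC against 59.8 and 52.8 CPM in aOL. Their log2 fold changes were 0.30 ± 0.17 and 0.18 ± 0.13 (SE, adjusted p = 0.737 and 0.766, edgeR). Over the leave-1-out fits these ran from 0.15 to 0.52 and from 0.10 to 0.27. The Bmp4 value was -0.34 with intron sites alone. Tcf7l2 (chromosome 19, 55741820 to 55933654, plus strand) had 236 and 309 CPM in aOPC against 335 and 301 CPM in aOL, and Fyn (chromosome 10, 39368855 to 39565381, plus strand) had 125 and 163 CPM in aOPC against 177 and 158 CPM in aOL. In both, aOPC replicate 2 was the lowest library and the groups overlapped. Itpr2 (chromosome 6, 146108299 to 146502223, minus strand), with 248 and 299 CPM in aOPC against 303 and 277 CPM in aOL, overlapped as well. So did Bcas1 (chromosome 2, 170346991 to 170427845, minus strand), with 69.0 and 77.8 CPM in aOPC against 77.6 and 73.1 CPM in aOL. Tnr (chromosome 1, 159523769 to 159931729, plus strand) had 83.4 and 96.6 CPM in aOPC against 80.8 and 85.6 CPM in aOL. These 5 genes had adjusted p from 0.773 to 0.965 by edgeR, and without aOPC replicate 3 the Tcf7l2, Fyn and Bmp4 gene bodies were called higher in aOL, when 22.7% of all gene bodies were called.

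Per kilobase of gene, Gpr17 carried the densest 5hmC signal of the 8, from 4.14 to 7.02 CPM per kilobase between the 97.4th and 98.8th percentile of genes. Bmp4 followed at 2.24 to 3.39. Tnr was lowest, at 0.198 to 0.237 CPM per kilobase, and Enpp6 was at 0.303 to 0.379. Gpr17 was thus at once the gene with the densest gene-body 5hmC and 1 of middling RNA level per length in aOL, whereas Enpp6, at the 90.3th RNA percentile there, had a gene body between the 34.6th and 42.2th percentile. The genes also differ in how many CCGG they hold, with 13 in Gpr17, 24 in Bmp4 and 76 in Enpp6, and the densities were not corrected for this.

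**Figure D4:**
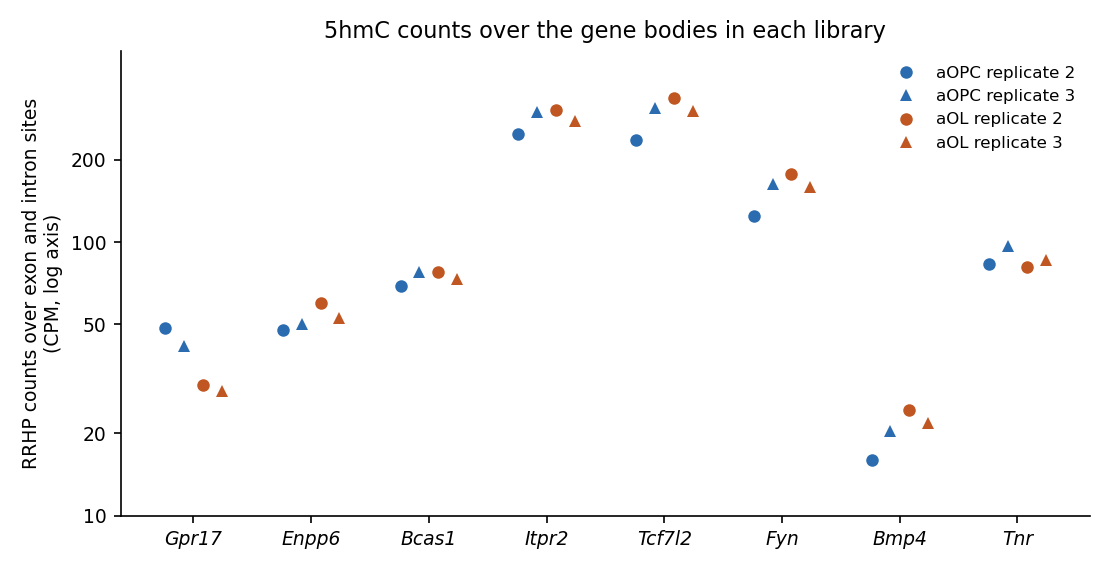
RRHP counts summed over exon and intron sites of each gene (y axis, CPM, log axis) in each library, with blue for aOPC, orange for aOL, circles for replicate 2 and triangles for replicate 3. Both aOL libraries of Gpr17, at 30.0 and 28.5 CPM, sit below both aOPC libraries, at 48.4 and 41.7 CPM.

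Promoter sites were few. Per the methods, the authors' promoter column runs from 2 kb before to 500 bases after a start site. It held 68 sites of 6 of the genes and none under the names Gpr17 and Bcas1. That window held 5 listed sites at Bcas1, which the column leaves out and which were not tested as a promoter. They had 99 and 261 counts in aOPC against 309 and 394 in aOL. In Tcf7l2 the column held 19 sites and that window 10. Tnr, with 3 and 1 counts in aOPC against 3 and 7 in aOL, was too low to test. None of the 5 promoters tested was called (edgeR), against 0.768% of 14579 promoters, and 2 of 5 had groups that did not overlap, against 27.5%. The Enpp6 promoter had 16 and 37 counts in aOPC against 64 and 93 in aOL, or 2.25 and 2.16 CPM against 4.02 and 3.44 CPM. Its log2 fold change was 1.15 ± 0.41 (SE, adjusted p = 0.379, edgeR), among the 1.84% of promoters higher in aOL at an unadjusted p under 0.01, and it was called without aOPC replicate 3, when 11.0% of promoters were. Over the leave-1-out fits the fold change ran from 0.71 to 1.76. The Bmp4 promoter had 20 and 21 counts in aOPC against 13 and 19 in aOL, a log2 fold change of -0.82 ± 0.48 (SE, adjusted p = 0.997, edgeR). Over the leave-1-out fits its fold change ran from -1.05 to -0.52. The promoters of Itpr2, Tcf7l2 and Fyn overlapped between groups, with log2 fold changes of -0.05, -0.22 and 0.25. The scaling matters here, since the TMM factor of aOPC replicate 2 was 1.75 for promoters and 0.757 to 0.936 for the other 3 libraries, where CpG islands took 5.74% of the counts in aOPC replicate 2 and 2.38% to 3.32% in the others. With library totals in place of TMM, the Enpp6 promoter had a log2 fold change of 0.76 (adjusted p = 0.774, edgeR), and the promoters at an unadjusted p under 0.05 went from 610 higher and 261 lower in aOL to 93 higher and 502 lower.

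Single CpG sites were tested where at least 2 libraries had at least 10 reads. With 2 libraries per population, a site could pass through 1 population alone. Of 387 tested sites of the 8 genes, 5 were called higher in aOL (1.29%) and 4 lower (1.03%), against 1.21% and 1.08% of all 443062 sites tested, so their shares were near the background. Gpr17, Bcas1 and Tcf7l2 had no called site. Log2 fold changes above 0 were found at 227 of the 387 sites, among them 83 of 119 in Tcf7l2, 41 of 58 in Fyn and 5 of 7 in Bmp4 but 17 of 43 in Tnr and 0 of 12 in Gpr17, where 50.8% of all tested sites lay below 0. The called sites lay in Tnr (4 sites at 3 CpG), Bmp4 (2), Enpp6, Fyn and Itpr2 (1 each).

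The called sites are shown as 30 reference bases of the plus strand (GRCm38) each, with the CCGG of the called site in capitals, because their counts are the only site-level differences that passed the test. The windows are chr1:159649548-159649577, chr1:159585449-159585478 and chr1:159816854-159816883 for Tnr, chr8:47030580-47030609 for Enpp6, chr14:46390740-46390769 and chr14:46384081-46384110 for Bmp4, chr10:39491899-39491928 for Fyn and chr6:146450095-146450124 for Itpr2.
Tnr intron 1, higher in aOL: agaaccaaattatCCGGtttgtgaccttga
Tnr intron 1, lower in aOL: tagaagtgctataCCGGgattccgaatttt
Tnr intron 2, lower in aOL: ttagtctgttctcCCGGagtcttcaaacag
Enpp6 exon 2, higher in aOL: atgtattactggcCCGGtgagtgtgccgac
Bmp4 promoter, lower in aOL: cgcctggcaaggcCCGGgtccggaagattg
Bmp4 exon 4, higher in aOL: gaaggcctggtagCCGGgtggggccacaat
Fyn intron 3, higher in aOL: ctgggaattgaacCCGGggcctcagactag
Itpr2 intron 2, higher in aOL: taagacatggggcCCGGcggcgatagggtt

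In Tnr, the site at chr1:159649563 on the minus strand, in intron 1, had 0 counts in both aOPC libraries and 90 and 112 in aOL. It was at least 16.4-fold higher in aOL against a floor of 3 counts in each aOPC library (adjusted p = 3.38e-05, edgeR). The site passed the read filter only through aOL, the population where it was high. The plus strand of the same CCGG had 0, 0, 0 and 1 counts. Elsewhere in intron 1, both strands of 1 CpG were called lower in aOL: the minus strand at chr1:159585464 had 43 and 91 counts in aOPC against 13 and 53 in aOL (log2 fold change -2.04, adjusted p = 0.008, edgeR). The plus strand at chr1:159585463 had 25 and 89 counts in aOPC against 11 and 42 in aOL (-1.99, adjusted p = 0.00994, edgeR). In intron 2, the minus strand at chr1:159816869 had 21 and 34 counts in aOPC against 3 and 16 in aOL (-2.57, adjusted p = 0.0176, edgeR). The 3 lower sites lost their call without aOPC replicate 3 or without aOL replicate 2.

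The Enpp6 site at chr8:47030594 on the plus strand lies in the coding part of exon 2, at its boundary with intron 2. It had 0 and 4 counts in aOPC against 41 and 56 in aOL, and passed the read filter only through aOL. The log2 fold change was 3.72 ± 0.64 (SE, adjusted p = 0.00336, edgeR), and ran from 3.28 to 8.23 over the leave-1-out fits. The call was lost without aOPC replicate 3. The exon counts of Enpp6 were 4 and 15 in aOPC against 52 and 74 in aOL, of which this site gave 0 and 4 in aOPC and most in aOL.

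Bmp4 had 1 called site in each direction. The promoter site at chr14:46390755 on the minus strand, 86 bases before the start site, had 12 and 11 counts in aOPC against 0 in both aOL libraries, at least 7.78-fold lower in aOL (adjusted p = 0.00712, edgeR). Its call was lost when either aOPC library was left out (0.126 and 0.0833). The 250 bases before the start (chr14:46390670-46390919, minus strand, RefSeq on GRCm38.p6) hold 3 CCGG, in capitals, of which the 1 nearest the start is the called site.
Bmp4 promoter: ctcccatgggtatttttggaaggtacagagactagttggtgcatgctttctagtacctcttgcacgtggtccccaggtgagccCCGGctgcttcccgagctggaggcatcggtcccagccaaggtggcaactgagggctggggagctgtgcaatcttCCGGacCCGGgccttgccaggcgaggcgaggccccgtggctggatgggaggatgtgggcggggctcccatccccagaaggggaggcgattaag
A CCGG, its own reverse complement, occurs in this window of 47.1% of the 32851 promoters in the RefSeq table. The 4 listed sites in these 250 bases had 17 and 18 counts in aOPC against 4 and 7 in aOL in sum, of which the called site gave 12 and 11 in aOPC and none in aOL.

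The Bmp4 site at chr14:46384096 on the minus strand, in the coding part of exon 4, had 0 counts in both aOPC libraries and 17 and 24 in aOL, at least 3.27-fold higher in aOL (adjusted p = 0.00742, edgeR). The plus strand of the same CCGG had 3 and 34 counts in aOPC against 36 and 40 in aOL, and was not called (adjusted p = 0.892). The call on the minus strand was lost without aOPC replicate 3 (0.133) and with DESeq2 (0.0634).

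The remaining called sites were the Fyn site at chr10:39491913, plus strand, in intron 3, with 0 and 2 counts in aOPC against 18 and 22 in aOL, and the Itpr2 site at chr6:146450109, plus strand, in intron 2, with 0 and 1 in aOPC against 18 and 16 in aOL. They were at least 3.26-fold and 2.88-fold higher in aOL (adjusted p = 0.041 and 0.0435, edgeR). The Fyn call was lost in all 4 leave-1-out fits and the Itpr2 call in 3 of 4.

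In 5 of the 9 called sites, both libraries of 1 population were at or under 3 counts. Each of these passed the read filter only through the other population. Such sites were not spread evenly over the genome: they made up 1.75% of all tested sites and a median of 0.541% in bins of 5 Mb. The bin that holds Bmp4 had 14.7%, ninth among 592 bins, that of Tnr 1.85%, that of Itpr2 1.18% and that of Fyn 0.444%. Reads on the other strand of the same CCGG were counted in the low population at both Bmp4 sites, 3 and 34 in aOPC for exon 4 and 0 and 3 in aOL for the promoter. The Fyn and Itpr2 sites had 2 and 1 counts in aOPC replicate 3 and none on the other strand in aOPC. At the Tnr site neither strand had a count in aOPC, and there a CCGG that the genome of that reporter line lacks and a CCGG without 5hmC cannot be told apart. Only 1 called site remained among the 8 genes without aOPC replicate 3, when 0.687% of all sites were called.

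None of the sites with the most counts in each gene was called, and their log2 fold changes ran from -0.61 to 0.79. Groups did not overlap in CPM at 5 of these 8 sites, against 40.6% of all tested sites. The Gpr17 site named above had 10.8 and 12.3 CPM in aOPC against 8.79 and 7.65 CPM in aOL, without overlap. The Itpr2 site at chr6:146409608 on the minus strand had 109 and 304 counts in aOPC against 239 and 395 in aOL, or 15.3 and 17.8 CPM against 15.0 and 14.6 CPM, also without overlap. The Fyn site at chr10:39510800 on the plus strand had 76 and 204 counts in aOPC against 223 and 346 in aOL, with aOL higher in CPM without overlap. The groups overlapped in CPM at the next 3 sites. The Tcf7l2 site at chr19:55925592 on the plus strand had 49 and 209 counts in aOPC against 184 and 344 in aOL. The Bcas1 site at chr2:170387753 on the minus strand had 62 and 197 counts in aOPC against 175 and 270 in aOL, and the Tnr site at chr1:159725522 on the plus strand 40 and 182 in aOPC against 141 and 233 in aOL. The Enpp6 site at chr8:47036916 on the minus strand had 20 and 63 counts in aOPC against 78 and 107 in aOL, or 2.81 and 3.68 CPM against 4.90 and 3.95 CPM. The Bmp4 site at chr14:46384407 on the minus strand had 11 and 81 counts in aOPC against 114 and 147 in aOL, or 1.55 and 4.73 CPM against 7.16 and 5.43 CPM. At both of these the aOL values lay above those of aOPC.

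**Figure D5:**
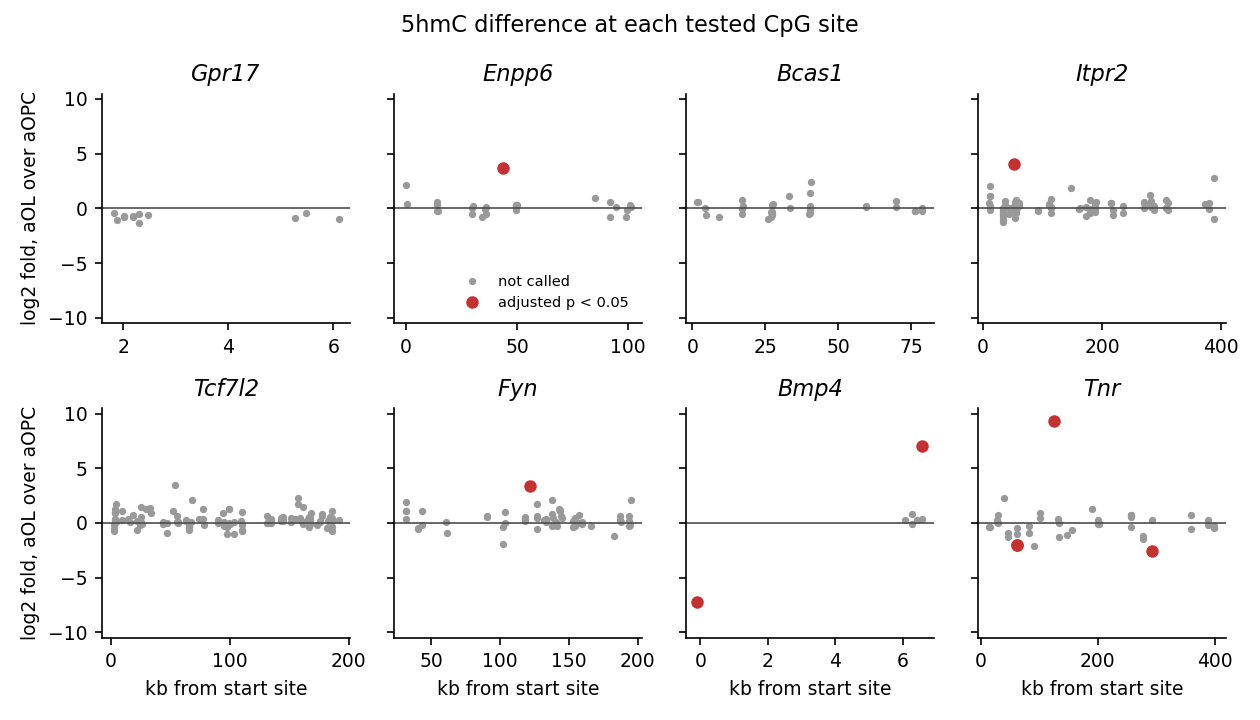
Fitted log2 fold change of RRHP counts, aOL over aOPC (y axis), at each tested CpG site of the 8 genes against its distance from the start site in kilobases (x axis), with called sites in red. All 12 Gpr17 sites lie below 0, and the extreme points of Tnr and Bmp4 are sites with 0 counts in both libraries of 1 population, whose fitted values are no bound on the fold.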

How the data were processed

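The authors deposited RNA as log2 values per gene. Per their methods, reads were aligned to mm10 with BWA, counted with featureCounts and normalized with DESeq2 (1.2.5 in the submitters' processing notes), and the deposited log2 values have nearly the same distribution in every library. The RRHP files hold raw counts per CpG site and strand on mm10, as the authors deposited them, and the aligner is not given in the sources used here. A site that 1 pair of tables does not list had no read in that pair and was given 0. A first replicate was not analysed here.

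For RNA, limma 3.58.1 tested every gene that reached a log2 value of 5 in 2 or more libraries. For RRHP, edgeR 4.0.16 (quasi-likelihood F-test, TMM) was used per site (10 or more reads in 2 or more libraries) and on counts summed per gene body or promoter (filterByExpr), with Benjamini-Hochberg adjustment over all features. DESeq2 1.42.0 (R 4.3.3) was an alternative. The floor of 3 counts in a library covers counting error only, since reads carried no molecular identifiers. The methods call the RRHP replicates biological, and p-values measure the spread between these libraries. Exon lengths, gene coordinates and exon numbers came from GENCODE vM21 (GRCm38, the mm10 assembly), gene lengths and promoters from RefSeq. RRHP positions are 1-based at the cytosine, and all sites on the chromosomes of these genes lay at a CCGG. Scripts were tested on simulated data.

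The 8 genes and the lists were chosen with earlier results of these data known. The text names all 8 genes, 6 stage and cell markers (1 is not reported here), the 3 genes per list with the largest difference among those without overlap, the 3 genes with the pattern most like that of Bmp4, every called site and the site with the most counts per gene. Further BMP pathway genes and relatives past an unadjusted p of 0.05, and the markers Aldoc, Aldh1l1, Slc1a3, Vtn, Acta2, Col1a2 and the higher genes of the mature list, were named after their values were seen. Replicate numbers were not used as pairs, because the reporter lines differ and deviations of same-numbered libraries correlated at -0.07 (RNA), -0.41 (gene bodies), -0.44 (promoters) and -0.12 (sites). Promoter sequences were found for 6 of the 8 genes.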

Additional observations from a re-analysis of the deposited data

How the results depend on the processing

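With 2 libraries per group, leaving out 1 library moved the counts of called features: from 0 to 3 of the 8 genes in RNA, from 0 to 4 gene bodies, from 0 to 1 promoters and from 1 to 12 sites, when 0.952% to 34.2% of all genes, 0.454% to 22.7% of all gene bodies, 0.425% to 11.0% of all promoters and 0.687% to 2.64% of all sites were called. The replicate block called 0 genes in RNA, 0 gene bodies, 0 promoters and 13 sites. Of all features it called 1.14%, 1.13%, 0.556% and 2.94%, in that order, against 2.29% of all sites without the block. Because same-numbered RRHP libraries deviated in opposite directions, a crossed replicate block was added after seeing the data, and it called 1 gene body, 1 promoter and 15 sites, when 3.88%, 2.31% and 3.24% of all were called. Without a filter on low counts 1 gene body, Gpr17, was called (1.02% of all), and with at least 10 reads in every library 2 of 176 sites were (0.286% of all). The signs turned, all below the threshold, for the Bcas1 gene body (-0.042 with sites of at least 3 reads in every library and -0.038 with exon sites alone), the Bmp4 gene body (-0.34 with intron sites alone) and the Fyn promoter (-0.43 with library totals only). They also turned for the Bcas1 site with the most counts (0.034 with library totals only, 0.10 with at least 10 reads in every library, 0.0078 with at least 5 in at least 2) and for that of Tnr (0.062, 0.13 and 0.037 in the same order, 0.029 with the replicate block and 0.026 with the crossed block). Leaving out 1 library gave ranges that include both signs, in RNA from -2.74 to 1.70 for Gpr17, -0.37 to 0.42 for Enpp6, -0.60 to 2.44 for Bcas1, -0.52 to 0.52 for Fyn, -2.59 to 0.25 for Tnr and -0.29 to 1.74 for Mbp. In RRHP the ranges were -0.069 to 0.13 for the Bcas1 gene body, -0.067 to 0.23 for Itpr2 and -0.24 to 0.0064 for Tnr. For promoters they were -0.33 to 0.15 for Itpr2, -0.81 to 0.78 for Tcf7l2 and -0.37 to 0.72 for Fyn, and for the sites with the most counts -0.12 to 0.030 for Bcas1 and -0.27 to 0.40 for Tnr. The cause was not tested. The part of the RRHP depth in the site results was not tested, and the RNA values hold no counts from which depth could be computed.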
